A study of Mus musculus with 8 samples.

Results

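The Gata2 locus was followed in maps of open chromatin from c-Kit+ bone marrow cells of mice with a Smc3 deletion, Flt3-ITD, both or neither. It was taken as the mm9 window chr6:88040000-88200000, which holds the gene at about 88144000 to 88157000 on the plus strand together with its known upstream and intronic enhancers. Every peak of the 8 deposited peak lists that overlapped this window was a member. These were 125 of 557040 peaks, which merged into 21 of the 114533 regions of the series. They are called regions 1 to 21 here, from left to right, and their distances are counted from position 88144000. Known elements were placed at nominal distances from this approximate start. A region named as an element is one that covers its nominal point.

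The cells were tested by ATAC-seq, in which a transposase cuts DNA that it can reach, and each genotype had 2 libraries of 50000 cells from magnetically selected c-Kit+ marrow. The 4 genotypes were Smc3 fl/del Flt3-ITD, called Smc3-deleted Flt3-ITD here, Flt3-ITD, Smc3 del/+, and Smc3 fl/+ as the control. All were taken 4 weeks after PIpC, an interferon inducer that switches on Mx1-Cre, a recombinase driven by an interferon-responsive promoter and so not confined to blood cells. Titles mark Mx1-Cre as present in the first 3 genotypes and absent in the control, which carries a floxed Smc3 allele. Each comparison with control therefore also compares Mx1-Cre, and its part cannot be told apart. Smc3 is part of cohesin, a ring of proteins around DNA that keeps replicated chromosomes paired and forms loops in chromatin. The Flt3-ITD allele carries an internal tandem duplication, common in acute myeloid leukemia, that leaves the cytokine receptor Flt3 active without its ligand. Smc3-deleted Flt3-ITD is called Smc3 heterozygous in its titles and fl/del in its genotype label, so the state of its second Smc3 allele is not settled. For Flt3-ITD and Smc3 del/+, the free-text description of each names the other genotype, and grouping followed title and genotype label. The age and sex of the mice are not given in the labels. No marker of the c-Kit+ fraction was tested, since no mm9 annotation was used.

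The lists differed before the locus was looked at. Smc3-deleted Flt3-ITD libraries held 80698 and 80316 peaks, against 61953 to 74525 in the other 6. They also had 294 and 282 peaks on Y, against 84 to 98, and 2.60% and 2.72% of their peaks on X, against 3.49% to 3.79%. Read depth is unknown for every library. Each comparison with this genotype therefore also compares longer lists that differ on the sex chromosomes, and the part of either in the results was not tested. In these bulk samples a site open in fewer cells and a site less open per cell cannot be told apart.

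Gata2 encodes a zinc finger transcription factor that binds GATA motifs and is needed for the emergence, survival and expansion of hematopoietic stem and progenitor cells. Its transcription in mice starts at a distal promoter, 1S, used in blood and neural cells, and at a proximal promoter, IG, used more widely. Known enhancers in mice lie about 77 kb upstream and 9.5 kb downstream of the 1S start, with the +9.5 kb site inside an intron. Further elements at -3.9, -2.8 and -1.8 kb are bound by GATA factors, with Gata2 acting on its own gene in progenitors and Gata1 displacing it as erythroid cells mature. The +9.5 kb enhancer is required for the formation of blood stem cells in the mouse embryo, and the -77 kb enhancer for the differentiation potential of myeloid progenitors.

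The promoters are the sites of this locus for which sequence was at hand, and they are shown for the letters they share or lack. RefSeq (GRCm38.p6) lists them at chr6:88193641-88193940 and chr6:88198414-88198713, plus strand, from 250 bases before to 50 after each start. These positions belong to another build than the peaks and cannot be set beside them. Capitals mark the motifs CCAAT and GGGCGG on either strand, which bind the CCAAT-box and GC-box factors of many promoters.
1S promoter: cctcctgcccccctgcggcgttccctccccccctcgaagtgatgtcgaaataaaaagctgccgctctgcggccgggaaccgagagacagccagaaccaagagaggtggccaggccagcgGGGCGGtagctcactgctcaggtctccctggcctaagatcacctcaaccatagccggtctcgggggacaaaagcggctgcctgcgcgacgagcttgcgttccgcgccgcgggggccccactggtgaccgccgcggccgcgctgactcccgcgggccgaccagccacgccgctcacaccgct
IG promoter: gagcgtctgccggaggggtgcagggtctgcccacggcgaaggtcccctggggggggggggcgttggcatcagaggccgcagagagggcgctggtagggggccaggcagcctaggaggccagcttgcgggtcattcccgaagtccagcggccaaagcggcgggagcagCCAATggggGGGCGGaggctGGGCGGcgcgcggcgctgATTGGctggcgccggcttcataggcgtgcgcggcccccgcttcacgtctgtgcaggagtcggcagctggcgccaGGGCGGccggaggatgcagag
Both are rich in G and C, with 69.3% in the 1S promoter and 73.7% in the IG promoter, against a median of 52.7% over 32851 mouse promoters of the same length. The 1S promoter holds 32 CpG dinucleotides and the IG promoter 29, against a median of 7. CCAAT occurs 2 times in the IG promoter, once on each strand, and not in the 1S promoter, and 37.4% of all promoters hold it. GGGCGG occurs 3 times in the IG promoter and 1 time in the 1S promoter, and 35.7% of all promoters hold it. Neither window holds GATA on either strand, which 57.9% of promoters do, nor TATAAA, which 13.6% do. CANNTG, the E-box, occurs 1 time in the IG promoter and not in the 1S promoter, and is found in 72.3% of promoters. These matches describe the letters of the windows and not binding.

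Open chromatin around Gata2 was dense and largely shared. The window held 13.1 regions per 100 kb, against 4.30 over chromosome 6 up to its last peak. Of the 21 regions, 10 were called in all 8 libraries (47.6%), against 31.5% of all regions of the series, and 3 were called in 1 library, against 24%. Region widths had a median of 1103 bp here and 905 bp over the series. Of the 21 regions, 14 lay upstream of the gene, 1 lay over its start, 3 lay inside it and 3 lay downstream. The upstream regions and those over or in the gene held all 10 regions called everywhere, and none of the 3 downstream regions was called in all 8 libraries. The longest stretch without a peak in any library ran 24.8 kb from the +9.5 kb enhancer (last base 88153931) to the first downstream region (88178768). In gene order the nearest protein-coding neighbours in RefSeq are Rpn1, upstream, and Dnajb8, downstream. Which peaks lie in them was not assigned, since no mm9 annotation was used.

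**Figure D1:**
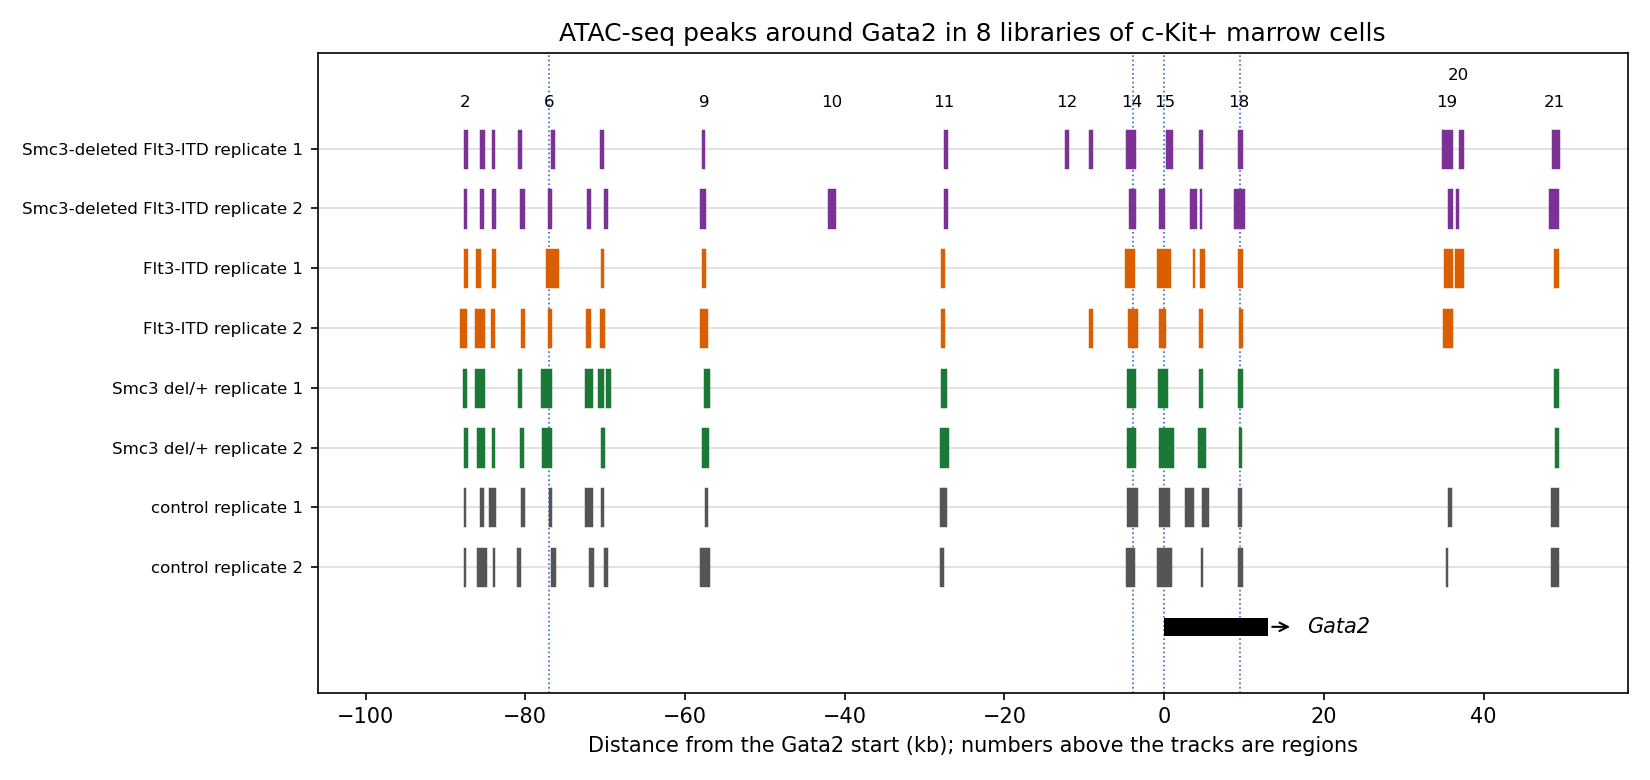
Peaks of the 8 libraries (rows, coloured by genotype) against the distance from the Gata2 start in kb, with the gene as a black bar and dotted lines at -77, -3.9, 0 and +9.5 kb. Peaks gather between -88 and -70 kb and from the -3.9 kb element to +9.5 kb, and the downstream regions 19 and 20 have no peak in Smc3 del/+.

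The distal part of the locus carried a cluster of 8 regions, regions 1 to 8, with the -77 kb enhancer inside it. Region 6 (chr6:88066007-88068050) spans the nominal point of that enhancer. It was called in all 8 libraries, with scores of exactly 1, the highest the lists give, in 6 of them. The Smc3 del/+ scores were also within rounding of 1. Its peaks covered 405 and 476 bp in Smc3-deleted Flt3-ITD, 1412 and 483 bp in Flt3-ITD, 1279 and 1170 bp in Smc3 del/+, and 219 and 409 bp in control. Both Smc3 del/+ libraries were wider than both control libraries and both Smc3-deleted Flt3-ITD libraries, while the Flt3-ITD libraries lay far apart. The Smc3 del/+ peaks began at 88066007 and 88066091, and the peaks of the other 6 libraries between 88066639 and 88067256. On the log2 scale of bases covered, centred on each library's median, the difference from control was 1.92 (SE 0.62) in Smc3 del/+, 1.40 (SE 0.62) in Flt3-ITD and 0.57 (SE 0.62) in Smc3-deleted Flt3-ITD. None of these passed in the limma fit over all 36101 regions called in every library (Benjamini-Hochberg adjusted p = 0.648 for Smc3 del/+, 0.938 for Flt3-ITD and 1.0 for Smc3-deleted Flt3-ITD). The Smc3 effect with Flt3-ITD minus that without it was -2.75 (SE 0.88, adjusted p = 0.738). The value for Flt3-ITD was 0.62 when its replicate 1 was left out and 2.18 when its replicate 2 was, and that for Smc3-deleted Flt3-ITD was 0.12 when control replicate 1 was left out and 1.02 when control replicate 2 was.

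**Figure D2:**
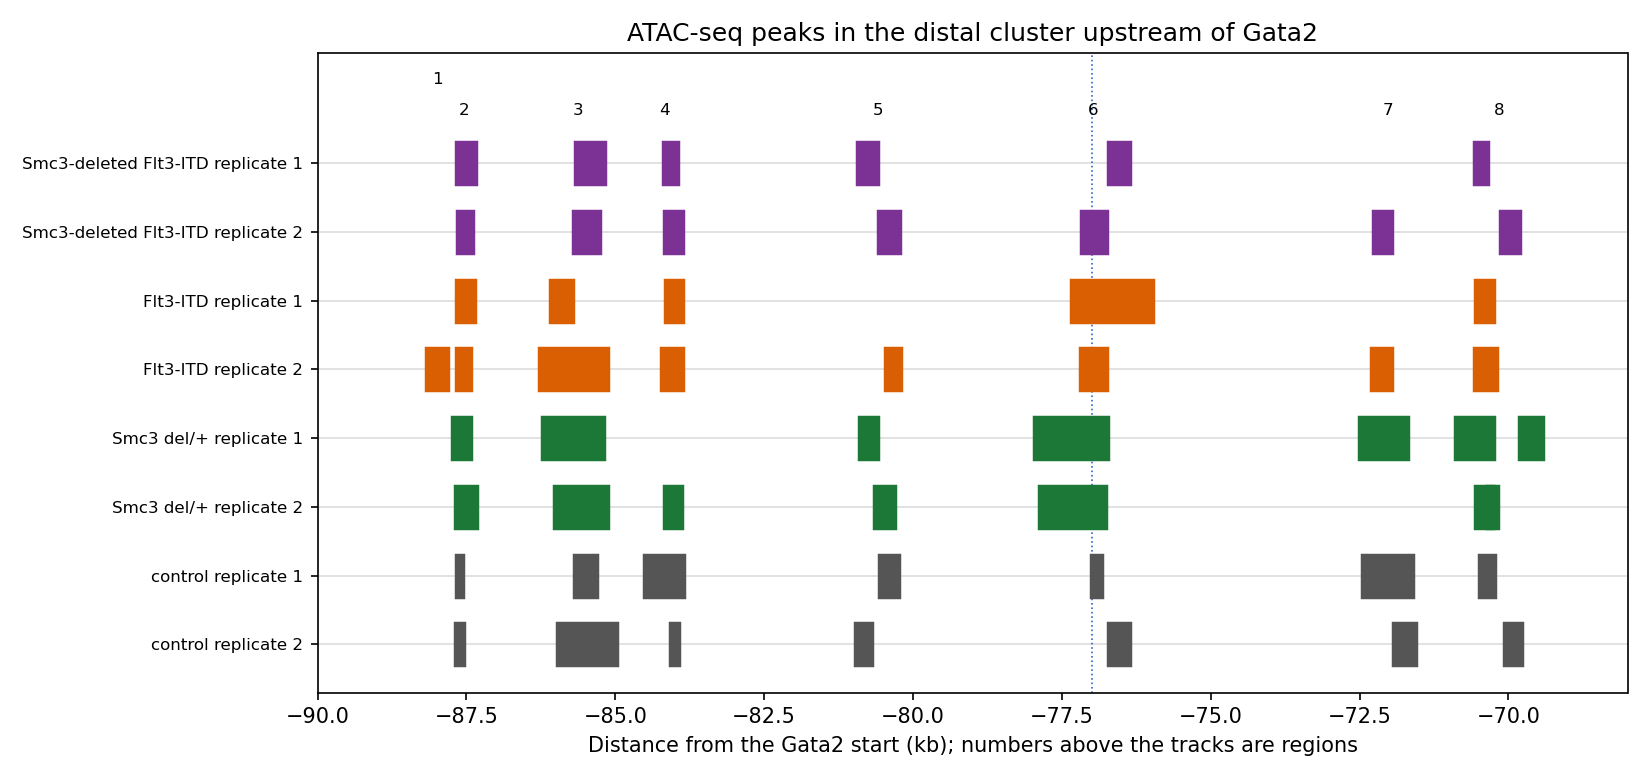
Peaks of the 8 libraries (rows) in the distal cluster against the distance from the Gata2 start in kb, with a dotted line at -77 kb and region numbers on top. Region 2 is narrow and in the same place in every library, and at region 6 the Smc3 del/+ peaks reach farther to the left than the others.

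Positions within region 6 varied as well. No base lay under peaks of all 8 libraries, and the most shared stretch, 5 bp at 88067256-88067260, lay under 7. Peak centres had an SD of 318 bp over the libraries, larger than in 95.4% of the regions called in all 8, where the median SD was 165 bp. A nominal -77 kb point at 88067000 lay under a peak in 6 libraries, and the peaks of Smc3-deleted Flt3-ITD replicate 1 (88067253-88067657) and control replicate 2 (88067256-88067664) began just to its right.

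Region 2 (chr6:88056241-88056692) was the most sharply placed of the 10 regions called in all 8 libraries, with an SD of peak centres of 45.5 bp, and was picked out after its values were seen. All 8 libraries gave it a score of exactly 1, as they did 35.4% of the 36101 regions called everywhere, and 149 bp lay under peaks of all 8. Its median width was 333 bp, and 1.93% of those regions had a smaller one. Peaks covered 382 and 308 bp in Smc3-deleted Flt3-ITD, 365 and 279 bp in Flt3-ITD, 358 and 398 bp in Smc3 del/+, and 161 and 191 bp in control. Every library of the 3 other genotypes was wider than both control libraries. The control libraries are also the only ones without Mx1-Cre, so genotype and Cre cannot be told apart here. The log2 difference from control was 0.98 in Smc3-deleted Flt3-ITD, 0.80 in Flt3-ITD and 1.0 in Smc3 del/+ (SE 0.23 each). None passed after adjustment over all regions (limma adjusted p = 1.0 for Smc3-deleted Flt3-ITD, 0.768 for Flt3-ITD and 0.553 for Smc3 del/+), and the 3 comparisons share the control libraries.

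The remaining distal regions were called in most libraries. Region 3 (-85.6 kb) was called in all 8 and covered 421 to 1190 bp, and region 8 (-70.2 kb) in all 8 with 278 to 1117 bp. The 1117 bp, in Smc3 del/+ replicate 1, came from separate peaks at 88073088-88073770 and 88074157-88074590. At region 8 the peaks of libraries of 1 genotype could lie side by side without sharing a base. They lay at 88073404-88073681 and 88073836-88074212 in Smc3-deleted Flt3-ITD and at 88073493-88073789 and 88073901-88074243 in control. Of the 28 library pairs, 19 shared a base there, against a median of 28 over all regions called everywhere and 26 in the 10 of this window. Region 4 (-84.2 kb) was missed in Smc3 del/+ replicate 1 and region 5 (-80.6 kb) in Flt3-ITD replicate 1. Region 7 (-72.0 kb) was called in both control libraries and in 1 library of each other genotype. Region 1 (-88.0 kb) was a peak of Flt3-ITD replicate 2 that ended 37 bp short of region 2.

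Between the distal cluster and the gene, regions 9 (-57.6 kb) and 11 (-27.6 kb) were called in all 8 libraries. Region 9 covered 208 and 596 bp in Smc3-deleted Flt3-ITD, 289 and 832 bp in Flt3-ITD, 555 and 730 bp in Smc3 del/+, and 253 and 1103 bp in control, so the genotypes overlapped. Its score exceeded that of 60.5% and 54.0% of the peaks of the list in Smc3-deleted Flt3-ITD, 57.8% and 53.3% for Flt3-ITD, 8.88% and 23.1% in Smc3 del/+, and 40.6% and 41.1% in control. The score is the authors' own value and these are ranks within lists of different length, so they describe each list and show no change. At region 11 the peaks of Smc3-deleted Flt3-ITD lay at 88116378-88116765 and 88116373-88116769, and those of Flt3-ITD at 88116026-88116378 and 88116014-88116371. The calls of these genotypes met end to end, Flt3-ITD on the left, and only Flt3-ITD replicate 1 shared a few bases with Smc3-deleted Flt3-ITD. Both Smc3 del/+ peaks and that of control replicate 1 ran across the border between these calls. The peak of control replicate 2 (88115924-88116300) lay on the left, as those of Flt3-ITD did. Region 10 (-41.7 kb) and region 12 (-12.2 kb) were each called in 1 Smc3-deleted Flt3-ITD library, and region 13 (-9.24 kb) in Smc3-deleted Flt3-ITD replicate 1 and Flt3-ITD replicate 2. These 3 scattered regions had no call in Smc3 del/+ or control. Over the series, 24% of regions were called in 1 library and 12.1% in 2. The scores exceeded those of 17.3% of the list at region 10, 32.5% at region 12, and 5.05% and 9.86% at region 13. With lists of equal length region 10 had no call.

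Close to the gene, the -3.9 kb element was the widest stretch shared by all libraries. Region 14 (chr6:88139118-88140634) had 672 bp under peaks of all 8 libraries. It covered 1130 and 827 bp in Smc3-deleted Flt3-ITD, 1156 and 1219 bp in Flt3-ITD, 995 and 1023 bp in Smc3 del/+, and 1162 and 1031 bp in control. In bp, both libraries of each Smc3-deleted genotype lay below both libraries of the matching genotype without the deletion. Median widths over the regions tested were 410 and 411 bp in Smc3-deleted Flt3-ITD and 433 and 435 bp in Flt3-ITD. Centred on those medians, as in the limma fit, these genotypes overlapped. The means were 978.5 bp for Smc3-deleted Flt3-ITD and 1187.5 bp for Flt3-ITD, and 1009 bp in Smc3 del/+ and 1096.5 bp in control. No width difference at this region passed (limma, adjusted p from 0.926 to 1.0 over the 5 pairs). The nominal -2.8 kb point, at 88141200, lay under no peak and 566 bp right of region 14, and the -1.8 kb point, at 88142200, lay 847 bp left of region 15. No library had a peak within 500 bp of either point. Both points, like those of the other elements, are placed from a gene start given only approximately.

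**Figure D3:**
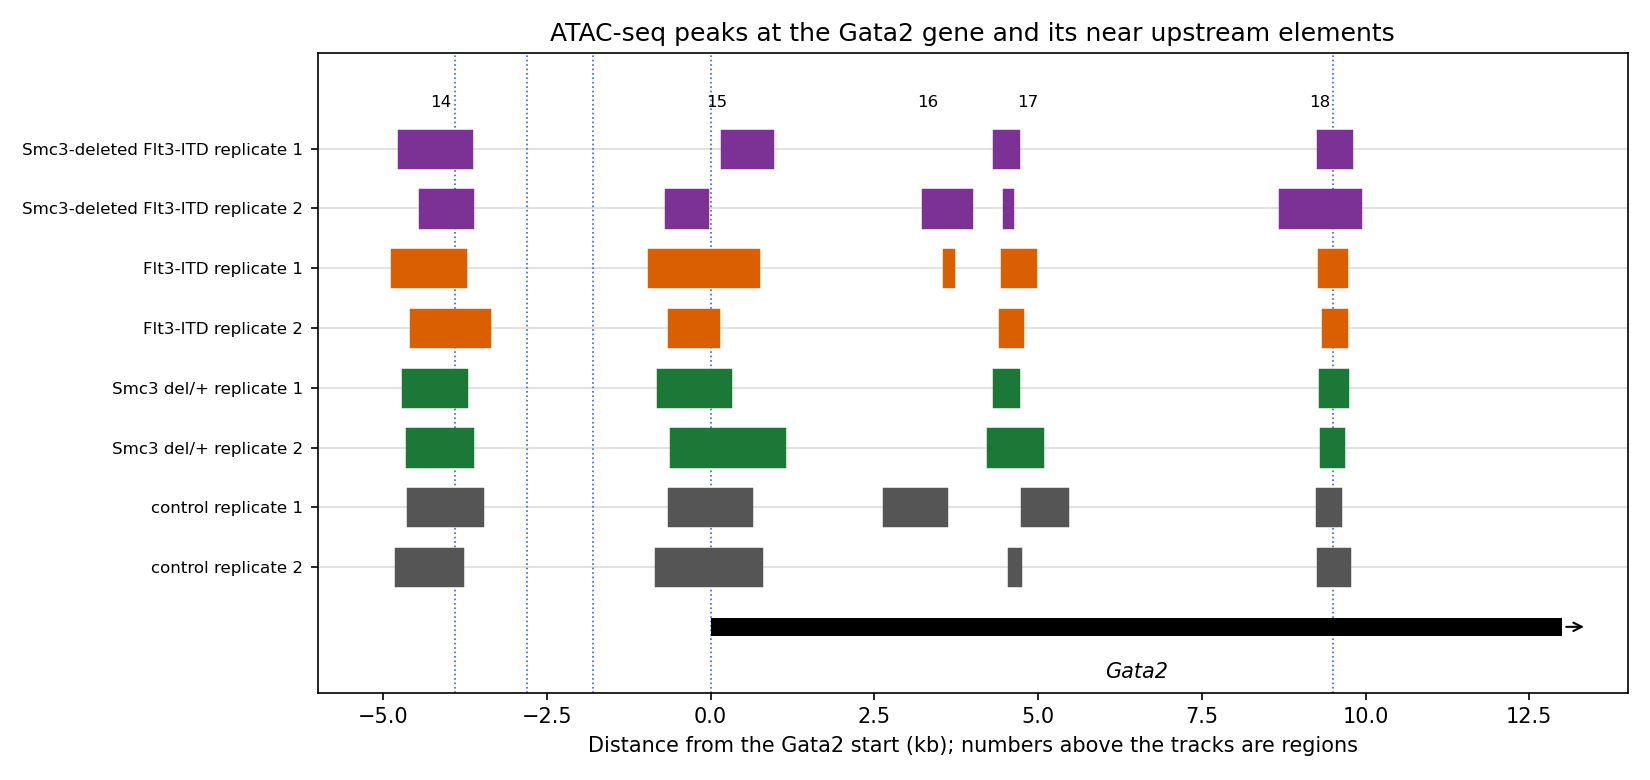
Peaks of the 8 libraries (rows) from -6 to 14 kb around the Gata2 start, with dotted lines at -3.9, -2.8, -1.8, 0 and +9.5 kb. Every library has a peak at -3.9 kb, near the start, near +4.8 kb and at +9.5 kb, and none has a peak at -2.8 or -1.8 kb.

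Every library had a peak within 500 bp of the gene start, where the 1S promoter lies, and 6 of 8 had one over it. These peaks form region 15 (chr6:88143047-88145138). Its peaks covered 793 and 667 bp in Smc3-deleted Flt3-ITD, 1695 and 780 bp in Flt3-ITD, 1140 and 1761 bp in Smc3 del/+, and 1286 and 1644 bp in control. Both Smc3-deleted Flt3-ITD peaks were narrower than both Smc3 del/+ and both control peaks, and overlapped with Flt3-ITD. They were also the libraries without a peak over position 88144000: the peak of replicate 1 (88144161-88144953) began to its right and that of replicate 2 (88143299-88143965) ended to its left, with no base in common. The difference in log2 width from control was -0.99 (SE 0.47, limma adjusted p = 1.0), and ran from -1.16 to -0.81 when single libraries were left out. The median width of the region, 1213 bp, exceeded that of 97.0% of the regions called in all 8.

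Region 17 (chr6:88148223-88149462, +4.84 kb) was called inside the gene in every library. In RefSeq the IG start lies 4773 bp downstream of the 1S start. The centres of the peaks in regions 15 and 17 lay between 3960 and 5110 bp apart, with a median of 4783 bp over the 8 libraries. The IG start was not placed on mm9, so no peak is assigned to it. Region 17 covered 400 and 159 bp in Smc3-deleted Flt3-ITD, 539 and 367 bp in Flt3-ITD, 388 and 858 bp in Smc3 del/+, and 717 and 190 bp in control, and all genotypes overlapped. Its peaks were narrower than those at the start, with a median of 394 bp. Just upstream, region 16 (+3.31 kb) was called in Smc3-deleted Flt3-ITD replicate 2, Flt3-ITD replicate 1 and control replicate 1, and in neither Smc3 del/+ library.

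The intronic +9.5 kb enhancer was one of the most sharply placed sites. Region 18 (chr6:88152685-88153931) lies inside the gene, and 290 bp, 88153337-88153626, were under peaks of all 8 libraries. Centres had an SD of 73.5 bp, smaller than in most regions called everywhere (19.0% had a smaller one). Peaks covered 529 and 1247 bp in Smc3-deleted Flt3-ITD, 446 and 383 bp in Flt3-ITD, 436 and 359 bp in Smc3 del/+, and 376 and 498 bp in control. Both Smc3-deleted Flt3-ITD libraries were wider than the other 6, most of it through replicate 2. The log2 difference was 1.05 against Flt3-ITD, 1.16 against Smc3 del/+ and 0.92 against control (SE 0.46 each), and none passed (limma adjusted p = 0.957, 0.713 and 1.0). Without Smc3-deleted Flt3-ITD replicate 2 these differences were 0.44, 0.54 and 0.31, and without its replicate 1 they were 1.67, 1.78 and 1.54.

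**Figure D4:**
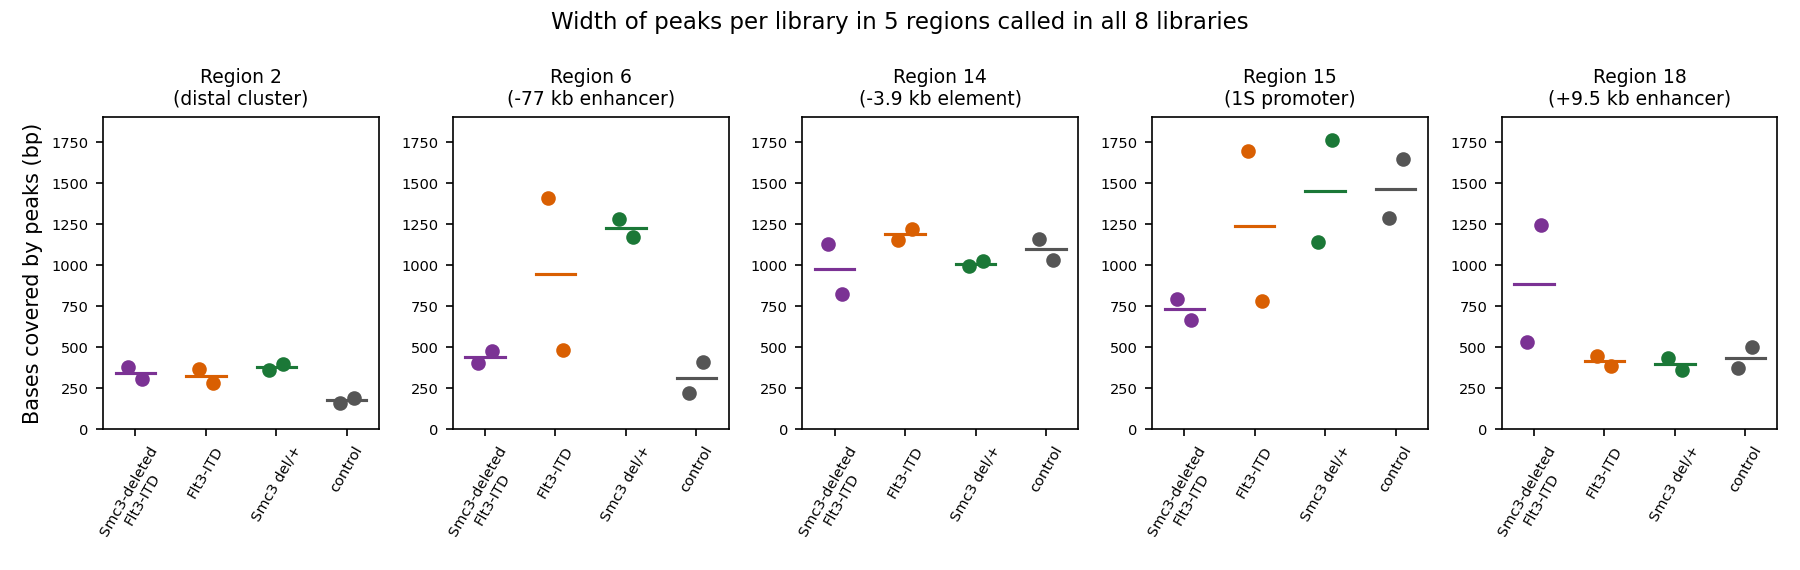
Bases covered by peaks (bp, linear axis from 0) in each library for 5 regions called in all 8 libraries, with points for libraries and a bar for the mean of the 2 libraries of a genotype. Control is lowest at region 2, Smc3 del/+ is above control and Smc3-deleted Flt3-ITD at the -77 kb enhancer, and Smc3-deleted Flt3-ITD is below control at region 15 and highest at +9.5 kb.

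The 3 downstream regions differed in how far calls agreed within a genotype. Region 19 (chr6:88178768-88180015, +35.4 kb) had calls in all libraries except those of Smc3 del/+. It covered 1211 and 460 bp in Smc3-deleted Flt3-ITD, 986 and 1065 bp in Flt3-ITD, 0 bp in both Smc3 del/+ libraries, and 356 and 180 bp in control. All 4 libraries with Flt3-ITD were wider than both control libraries. Its score exceeded that of 59.2% and 62.7% of the list in Smc3-deleted Flt3-ITD, 24.7% and 30.9% for Flt3-ITD, and 0.491% and 11.8% in control. In control this call was thus close to the lower end of the list, and the region was no longer lost in Smc3 del/+ when lists were cut to equal length, when the upper 50% by score were kept, or when a call had to cover at least 20% of a region.

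Region 20 (chr6:88180401-88181375, +36.9 kb) had calls of 474 and 350 bp in Smc3-deleted Flt3-ITD and one of 975 bp in Flt3-ITD replicate 1. It had no call in Smc3 del/+ or control. The scores were low in all 3, above 11.6% and 11% of the Smc3-deleted Flt3-ITD lists and 15.1% of the list of Flt3-ITD replicate 1. With lists of equal length only Flt3-ITD replicate 1 kept the call. Region 21 (chr6:88192228-88193375, +48.8 kb) was called in every library but Flt3-ITD replicate 2, with 380 to 1034 bp.

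Between genotypes, few calls in the window changed in both libraries. A region counted as gained when both libraries of the first genotype called it and neither of the second did, and as lost in the reverse case. These are counts without a test, since 0.333 is the lowest two-sided permutation p that 2 libraries a side can give. Smc3-deleted Flt3-ITD against control gained 1 of 16 regions (region 20) and lost 0, against 14.2% gained and 6% lost over all regions of the series. Smc3-deleted Flt3-ITD against Flt3-ITD, for adding the Smc3 deletion, gained 0 and lost 0 of 15, against 13% and 2.96%. Smc3-deleted Flt3-ITD against Smc3 del/+, for adding Flt3-ITD, gained 2 of 15 (regions 19 and 20) and lost 0, against 19.7% and 5.95%. Flt3-ITD against control gained 0 and lost 0 of 15, against 4.42% and 7.85%. Smc3 del/+ against control gained 0 and lost 1 of 15 (region 19), against 3.02% and 8.04%. With so few regions, none of these counts stood apart from the shares of the series. The regions behind them, 19 and 20, lie downstream of the gene. Of the nominal points with peaks, -3.9 and +9.5 kb lay under a peak in all 8 libraries, and -77 kb and the start in 6 each.

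The number of peaks in the window ran from 14 to 18 per library. It was 17 and 18 in Smc3-deleted Flt3-ITD, 15 and 16 for Flt3-ITD, 14 and 14 in Smc3 del/+, and 16 and 15 in control. Region 8 added an extra peak to the count of each Smc3 del/+ library. In replicate 2 that peak (88073627-88073759) lay inside another (88073424-88073838). Both Smc3-deleted Flt3-ITD libraries were above the other 6 and both Smc3 del/+ libraries were below them. Over the 8 libraries the difference of means was 0.25 peaks for Smc3 deletion (exact two-sided permutation p = 1.0), 1.75 for Flt3-ITD (exact p = 0.143) and 1.75 for the interaction, which sets Smc3-deleted Flt3-ITD and control against the single genotypes (exact p = 0.143). None passed, also after Benjamini-Hochberg adjustment over 6 tests (1.0, 0.429 and 0.429). The smallest p that 4 libraries against 4 allow is 0.0286. Per 100000 peaks of the library the numbers were 21.1 and 22.4 in Smc3-deleted Flt3-ITD, 22.3 and 24.9 for Flt3-ITD, 22.6 and 22.1 in Smc3 del/+, and 21.5 and 23.2 in control, and all genotypes overlapped. On that scale the differences for Smc3 deletion and for the interaction turned to -0.93 and -0.96 peaks. With the Flt3-ITD and Smc3 del/+ libraries exchanged, as their free-text descriptions have them, the differences in number were 1.75 for Smc3 deletion and 0.25 for Flt3-ITD.

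**Figure D5:**
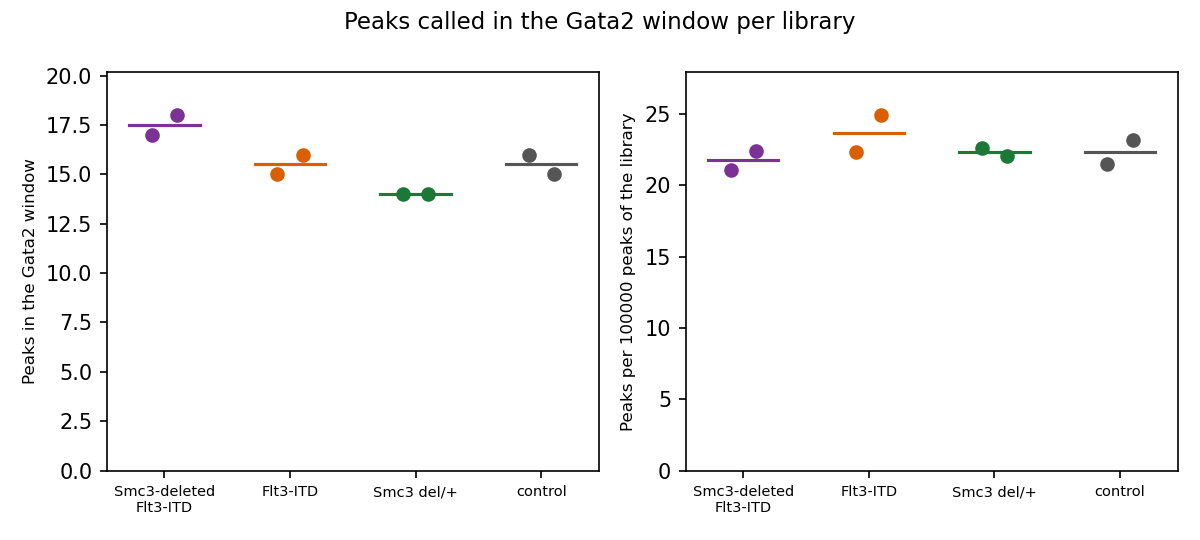
Peaks in the Gata2 window in each library (left) and the same per 100000 peaks of the library (right), with a bar for the mean of the 2 libraries of a genotype. The counts reach 18 in Smc3-deleted Flt3-ITD and are 14 in both Smc3 del/+ libraries, and the genotypes overlap once list length is taken into account.

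The bases covered in the window overlapped between all genotypes as counted, but not once divided by the bases of the whole list. They were 8996 and 10069 in Smc3-deleted Flt3-ITD, 9911 and 9253 for Flt3-ITD, 9632 and 9800 in Smc3 del/+, and 9963 and 8871 in control. The differences were 125 bp for Smc3 deletion, -9.25 bp for Flt3-ITD and -174 bp for the interaction (exact permutation p = 0.8, 1.0 and 0.686, adjusted p = 1.0 each). Per 100000 bases of the list they were 21.7 and 24.1 in Smc3-deleted Flt3-ITD, 26.0 and 25.4 for Flt3-ITD, 26.4 and 26.4 in Smc3 del/+, and 25.6 and 26.0 in control. The Smc3-deleted Flt3-ITD lists covered the most bases in all, 41494265 and 41741318 against 34064278 to 38977672. Per 100000 bases of the list, both Smc3-deleted Flt3-ITD libraries lay below the other 6. On that scale the difference was -1.12 with Smc3 deletion, -1.78 with Flt3-ITD and -1.69 in the interaction, and none passed (exact permutation p = 0.429, 0.0857 and 0.114, adjusted p = 0.514, 0.343 and 0.343). No single region passed in width either. Of the 10 regions called in all 8 libraries, 0 passed the limma threshold of 0.05 in any of the 5 pairs or the interaction, as did 0 of the 36101 regions of the series (0%). At an unadjusted p under 0.05 the window had 1 region each in Smc3-deleted Flt3-ITD against control, Flt3-ITD against control and Smc3-deleted Flt3-ITD against Smc3 del/+, 2 in Smc3 del/+ against control, 0 in Smc3-deleted Flt3-ITD against Flt3-ITD and 2 in the interaction. The share over the series ran from 4.07% to 6.88%. The median log2 width difference of the 10 regions was 0.45 in Smc3 del/+ against control and -0.85 for Smc3-deleted Flt3-ITD against Smc3 del/+, where 2 of 10 were positive, against medians of -0.01 and 0.00 over all regions. It was -0.27 in Smc3-deleted Flt3-ITD against control, 0.04 in Flt3-ITD against control and -0.31 in Smc3-deleted Flt3-ITD against Flt3-ITD.

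Scores in the window reached 1 in every library. Peaks at exactly 1 numbered 4 and 5 in Smc3-deleted Flt3-ITD, 5 and 5 for Flt3-ITD, 2 and 2 in Smc3 del/+, and 4 and 3 in control. The share of such peaks in the whole list was 34.7% and 34.9% in Smc3-deleted Flt3-ITD, 32% and 31.8% for Flt3-ITD, 27.2% and 27.3% in Smc3 del/+, and 30.9% and 31.6% in control. They fell on regions 2, 6 and 11 in at least 6 libraries each. No library gave region 15, at the gene start, or region 17 a score of 1, although every library called both.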

How the data were processed

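Each library had 1 deposited peak list. Per the submitters' processing notes, reads were aligned with Bowtie (no version) to mm9. The sources used here do not name the peak caller, duplicate handling or transposase offset. The deposited score, the authors' own value per peak, lies between 0.99 and 1, and its meaning is not given. Start and end positions, deposited in bases, gave widths.

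Peaks of all lists were merged where they overlapped by at least 1 bp. Width was the number of bases a library covered in a region. Log2 widths, centred on library medians, were fitted with limma 3.58.1 (R 4.3.3, eBayes with trend) over the 36101 regions called in all 8 libraries, with Benjamini-Hochberg adjustment over all of them. Exact permutation tests used all 70 assignments. Other steps used Python 3.11.15, numpy 2.4.6, pandas 2.3.3 and matplotlib 3.10.9. Merging, calling and the limma fit were tested on simulated data. For Smc3-deleted Flt3-ITD against control, the fit recovered 0.75% of simulated log2 width changes of 1, 61.5% of 2 and 99.75% of 3. The simulation gave every region the same spread, the median over the regions. In the window the SE of this comparison ran from 0.23 at region 2 to 0.87 at region 9. Recovery at regions of larger spread was not tested. A width difference that did not pass is thus not shown to be absent.

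The labels do not say that libraries of a genotype came from different mice, so p-values measure only the spread between these libraries. The members, lists and tests were chosen with earlier results of these data known. Described in full were known elements within 1 kb of a nominal place, regions gained or lost in a pair, regions passing in width and the 3 widest called in all 8. The planned count of partner gene promoters was not made, for want of an mm9 annotation. Alternatives were other peak sets, merging rules, centring, exchanged labels and leaving out libraries.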

Additional observations from a re-analysis of the deposited data

Results flagged for a closer look

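The number of peaks in the window moved in opposite directions with the Smc3 deletion: both libraries were above those of the matching genotype when Flt3-ITD was present (Smc3-deleted Flt3-ITD minus Flt3-ITD, mean difference 2 peaks) and both were below it when Flt3-ITD was absent (Smc3 del/+ minus control, -1.5 peaks). The interaction, here the mean of Smc3-deleted Flt3-ITD and control minus that of the single genotypes, was 1.75 peaks. It did not pass (exact permutation p = 0.143), and list length moved in the same way.

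The width of region 6, at the -77 kb enhancer, also moved in opposite directions as counted in bp. Smc3-deleted Flt3-ITD was narrower than Flt3-ITD in both libraries (mean difference -507 bp) and Smc3 del/+ wider than control in both (910.5 bp). The first difference came mostly from Flt3-ITD replicate 1 (1412 bp), since its replicate 2 had 483 bp and Smc3-deleted Flt3-ITD replicate 2 had 476 bp. Median widths over the regions tested were 435 and 411 bp in these replicates 2. Centred on those medians, as in the limma fit, their order was reversed. The interaction in width, here the Smc3 effect with Flt3-ITD minus that without it, was -2.75 on the log2 scale. It did not pass (limma, adjusted p = 0.738).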

How the results depend on the processing

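After adjustment over the 6 tests no alternative passed for peak number or bases covered. Before it, 2 reached the smallest exact permutation p of 0.0286: Flt3-ITD in peak number with the upper 50% by score (2.75 peaks) and the interaction in bases with equal numbers of peaks (-1524.25). In width, 0 of the 10 window regions passed in any of the 13 other limma fits, whose smallest adjusted p for a window region was 0.188. With the replicate block 0 window regions passed in each contrast. The replicate numbers did not pair the libraries (correlations of deviations from -0.0133 to 0.00861). Directions of small differences depended on the lists. Divided by the library total, Smc3 deletion gave -0.93 peaks per 100000 peaks and -1.12 bases per 100000 bases covered, and the interaction -0.96 peaks. With equal numbers of peaks, peak number gave -1.0 for Smc3 deletion and -0.5 for both Flt3-ITD and the interaction, and bases gave -559 for Smc3 deletion. The upper 50% by score gave 1333 bases for Flt3-ITD (exact permutation p = 0.0857). Exchanged labels gave -9.25 bases and 1.75 peaks for Smc3 deletion, and 125 bases and 0.25 peaks for Flt3-ITD. Leaving out libraries gave -0.5 (without Smc3-deleted Flt3-ITD replicate 2) to 0.83 peaks for Smc3 deletion, 1.25 to 2.25 peaks for Flt3-ITD and for the interaction, and in bases -84.8 to 334 for Smc3 deletion, -241 to 178 for Flt3-ITD and -372 to 27.0 for the interaction.

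Counts of gained and lost regions moved by 1 or 2. Smc3-deleted Flt3-ITD against control gained 2 with the upper 50% by score and 0 with equal numbers of peaks, which also gave 2 lost. Flt3-ITD against control gained 1 with the upper 50% and lost 1 with equal numbers and with exchanged labels. Smc3 del/+ against control lost 0 with at least 20% covered, the upper 50%, equal numbers or exchanged labels. Smc3-deleted Flt3-ITD against Flt3-ITD gained 1 with the upper 50% and 2 with exchanged labels, and lost 1 with equal numbers. Against Smc3 del/+, Smc3-deleted Flt3-ITD gained 3 with the upper 50%, 1 with equal numbers and 0 with exchanged labels. Merging peaks within 100 bp changed none of these counts. Leaving out a library, which loosens the rule, gave 1 to 3 gained and 0 to 1 lost for Smc3-deleted Flt3-ITD against control, 0 to 2 gained and 0 to 2 lost for Flt3-ITD against control, 1 to 2 lost for Smc3 del/+ against control, 0 to 2 gained and 0 to 1 lost for Smc3-deleted Flt3-ITD against Flt3-ITD, and 2 to 4 gained between Smc3-deleted Flt3-ITD and Smc3 del/+. The causes were not tested.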
